A study of Brassica juncea with 4 samples.

Results

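The miRNA family miR319 and the cleavage sites listed with it were followed in floral buds of Brassica juncea, an allotetraploid mustard crop. The family was taken as every deposited entry named miR319 or MIR319, which gave 8 entries and, after identical mature sequences were joined, 7 distinct sequences of 248 (288 entries). The other members were the 10 gene and site pairs at which a degradome table listed a miR319 query, of 522 such pairs. The buds came from a cytoplasmic male sterile line (CMS), whose cytoplasm derives from B. rapa and which was backcrossed recurrently to fertile B. juncea, and from its maintainer fertile line (MF). Both lines flowered under long days, and all buds of an inflorescence were taken from several plants and pooled. Each line gave 1 small RNA library and 1 degradome library, so every comparison below is between 2 libraries and has no replicate check.

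miR319 is one of the oldest plant miRNA families. It guides cleavage of mRNAs of a subset of the CIN-type TCP transcription factors, which restrain cell proliferation in leaves and petals. In Arabidopsis, loss of miR319a disturbs petals and stamens. Its sequence is close to that of miR159, which guides cleavage of mRNAs of GAMYB-like MYB factors that act in the anther tapetum. In Arabidopsis the MIR319 hairpins are long and are cut in steps from the loop towards the base, so that a hairpin can release further small RNA duplexes above the miRNA itself.

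The CMS small RNA library held 3339182 raw and 3192676 mappable reads, against 11845753 raw and 7331757 mappable reads in the MF library. Listed miRNAs took 105033 reads in CMS and 90880 in MF. The degradome libraries held 4967302 reads mapped to Arabidopsis cDNA in CMS and 7717843 in MF. The normalized values that the authors deposited are close to the raw reads times 1.12 in CMS and times 0.896 in MF, factors taken from miR319a/b. This differs from the ratio of mappable reads, and the choice of scale bears on every level below. Intervals are 95% intervals of counting error alone, since there was 1 library per line and assay. Reads had no molecular identifiers, so the intervals do not cover duplicate reads either. Fewer cells of a type and less RNA per cell cannot be told apart in such bud pools.

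The 7 sequences are printed first because they differ by single bases and ends on which the later comparisons turn. They are given 5′ to 3′ as DNA letters, with the seed (bases 2 to 8) in capitals. The first 4 are the miRNA of the 3′ arm and its variants.
ath-miR319a and ath-miR319b: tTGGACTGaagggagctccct
ath-miR319c_L+1R-1: tTTGGACTgaagggagctcct
ptc-miR319i_R+1_1ss5GA: tTGGACTGaagggagctcccc
rco-miR319d_2ss20TC21TA: tTGGACTGaagggagctccca
The other 3 come from the 5′ arm.
ath-MIR319a-p5: tAGCTTCCgactcattcatcca
ath-MIR319b-p5: gAGCTTTCttcggtccactc
ath-MIR319c-p5: aTCTGCCGactcatccatcca

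ath-miR319a and ath-miR319b have 1 mature sequence, so their reads cannot be assigned to a locus and are given as miR319a/b. Counted from the 5′ end of miR319a, ptc-miR319i_R+1_1ss5GA differs only by T21C and rco-miR319d_2ss20TC21TA only by T21A. These 3 sequences share the seed TGGACTG. The names refer to poplar and castor bean entries of miRBase, although the sequences lie within 1 base of the Arabidopsis miRNA. ath-miR319c_L+1R-1 has 1 further base at its 5′ end and, in the numbering of miR319a, the substitution C20T, so its seed is TTGGACT. The 3 sequences of the 5′ arm have 3 different seeds.

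The miR159 family offers the nearest relatives in the same libraries, and 2 of its sequences show how close the families lie.
ath-miR159a: tTTGGATTgaagggagctcta
ahy-miR159_1ss7TC: tTTGGACTgaagggagctcta
ahy-miR159_1ss7TC differs from miR159a by T7C and from ath-miR319c_L+1R-1 by C20T and T21A, both counted from the 5′ end of the 21-nt sequence. It has the seed of ath-miR319c_L+1R-1 and not that of miR159a.

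The deposited hairpins are those of Arabidopsis. MIR319a lies on the forward strand at chr4:12352934-12353149, MIR319b on the reverse strand at chr5:16660461-16660676 and MIR319c on the forward strand at chr2:17029676-17029932 (TAIR10), with predicted folding energies of -83.5, -84.6 and -90.5 kcal per mol. The 30 nt around the miRNA of each hairpin are shown with the listed miRNA in capitals, because these stretches separate the loci that the mature reads cannot.
MIR319a: ttgaTTGGACTGAAGGGAGCTCCCTctctc
MIR319b: atgcTTGGACTGAAGGGAGCTCCCTatttt
MIR319c: gtgTTTGGACTGAAGGGAGCTCCTtctttt
miR319a/b matched 2 of these 3 hairpins exactly, ath-miR319c_L+1R-1 and each 5′ entry matched 1, and ptc-miR319i_R+1_1ss5GA and rco-miR319d_2ss20TC21TA matched none.

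The 5′ entries do not all lie opposite the miRNA. ath-MIR319b-p5 covered nt 40 to 59 of its hairpin, and of its 16 bases paired in the predicted fold 15 had their partner inside miR319b, at nt 188 to 208. ath-MIR319a-p5 covered nt 70 to 91 and paired through 16 bases with nt 130 to 152, a stretch on the loop side of miR319a (nt 176 to 196) with 23 nt between them. ath-MIR319c-p5 covered nt 86 to 106 and paired through 15 bases with nt 149 to 169, with 24 nt before ath-miR319c_L+1R-1 at nt 194 to 214. None of the partners of these last 2 entries lay inside the miRNA. The map of the 3 hairpins shows this difference in place.

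**Figure D1:**
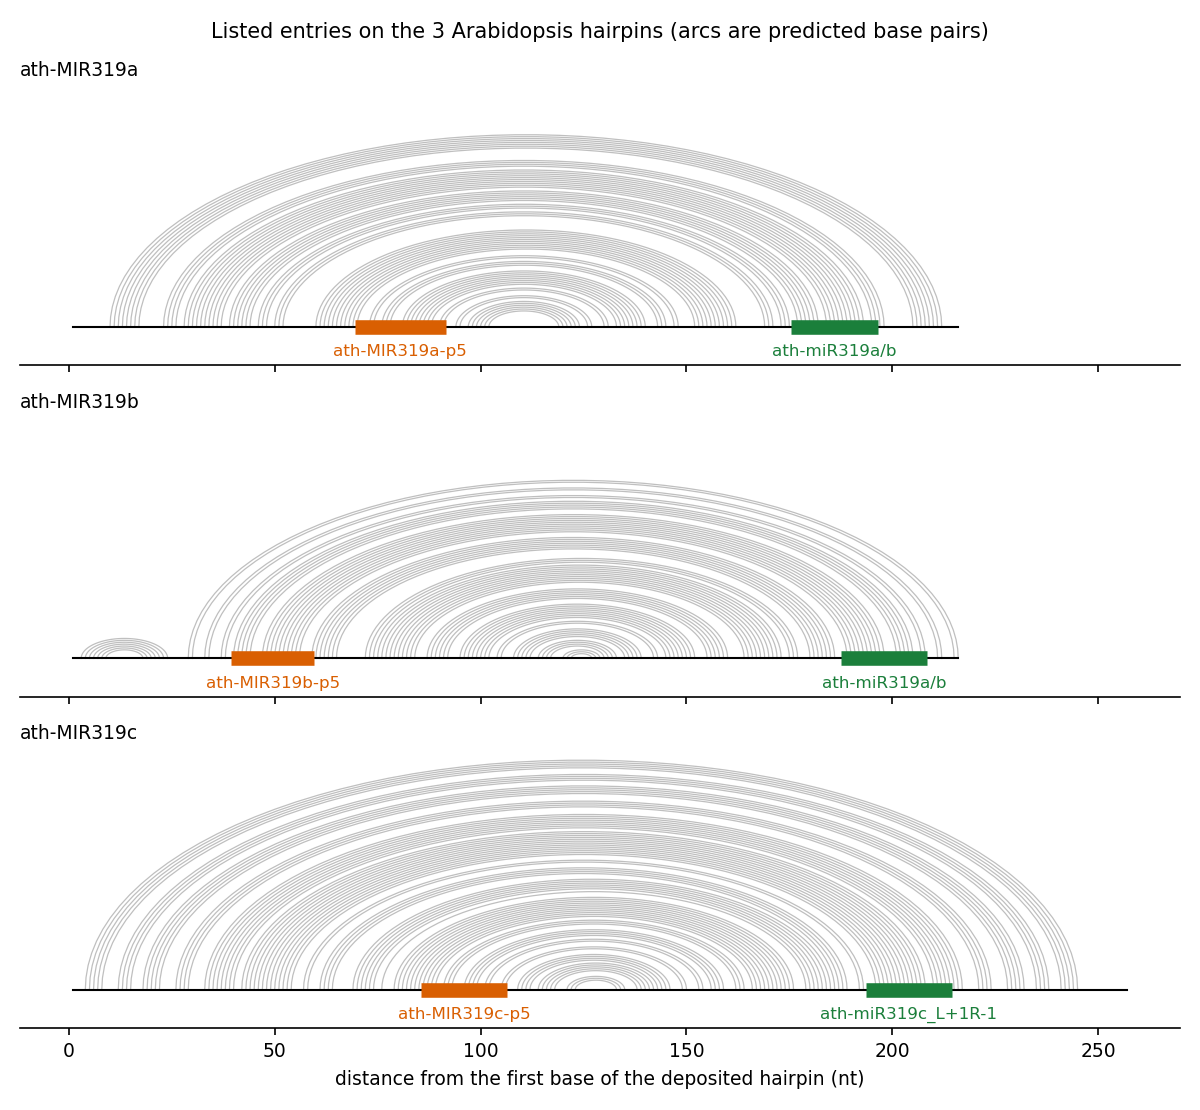
The 3 Arabidopsis MIR319 hairpins, with distance from the first base in nt on the horizontal axis and arcs for the deposited predicted base pairs. Green bars are the listed miRNAs and orange bars the 5′ entries. The orange bar of MIR319b is joined by arcs to the miRNA, while those of MIR319a (nt 70 to 91) and MIR319c (nt 86 to 106) are joined to stretches nearer the loop.

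miR319a/b was the most abundant miRNA sequence of both libraries, with 74029 raw reads in CMS and 50580 in MF. The sequence of next rank was miR159a in CMS, with 5143 reads, and miR167a in MF, with 6967 reads. miR319a/b alone took 70.5% of the listed miRNA reads in CMS (exact binomial interval 70.2 to 70.8%) and 55.7% in MF (55.3 to 56.0%). The whole family took 73.9% in CMS (73.6 to 74.2%) and 60.6% in MF (60.2 to 60.9%). Of all mappable reads the family took 2.43% in CMS and 0.751% in MF.

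Within the family the order of levels was steep. ath-miR319c_L+1R-1, the next sequence, had 2859 reads in CMS and 3392 in MF and held place 6 among all sequences of each library. ptc-miR319i_R+1_1ss5GA had 549 reads in CMS and 741 in MF and held place 13 in each. rco-miR319d_2ss20TC21TA had 74 reads in CMS and 224 in MF, place 34 in CMS and place 23 in MF. The variants were thus fewer in raw reads in the CMS library, in which miR319a/b had more.

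The 5′ entries were rare. ath-MIR319a-p5 had 56 reads in CMS and 53 in MF, ath-MIR319c-p5 had 27 in CMS and 42 in MF, and ath-MIR319b-p5 had 18 in CMS and 0 in MF. Together they were 0.130% of the family's reads in CMS (0.106 to 0.158%) and 0.173% in MF (0.140 to 0.211%), intervals that overlap. In the order of raw reads, rco-miR319d_2ss20TC21TA and ath-MIR319a-p5 could not be separated in CMS (exact binomial p = 0.136), nor could ath-MIR319c-p5 and ath-MIR319b-p5 in CMS (p = 0.233, exact) or ath-MIR319a-p5 and ath-MIR319c-p5 in MF (p = 0.305, exact). All other neighbours in the order differed by more than counting error.

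**Figure D2:**
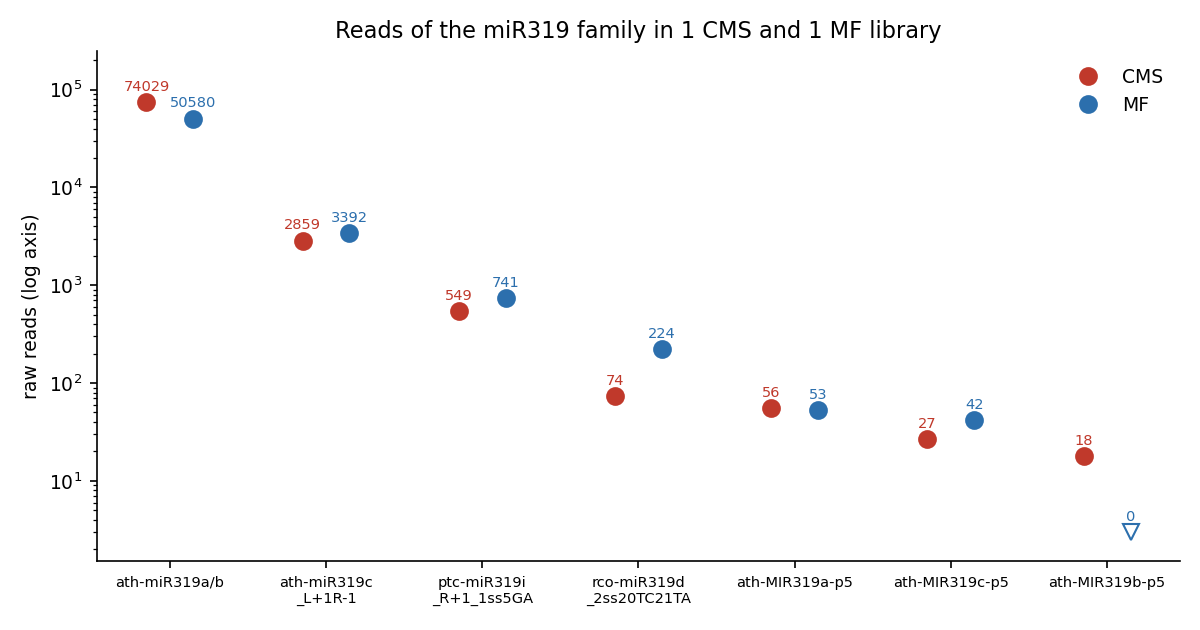
Raw reads of the 7 miR319 sequences on a log axis, with CMS in red on the left and MF in blue on the right of each pair, from 1 library each. miR319a/b stands at 74029 reads in CMS and 50580 in MF, far above the rest, and the open triangle marks the 0 reads of ath-MIR319b-p5 in MF, drawn at 3 reads.

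Set against each other on the authors' scale, miR319a/b was 1.82-fold higher in CMS than in MF, with 82597 normalized units in CMS and 45330 in MF. The log2 ratio was 0.87 (0.85 to 0.88), and the sequence passed the 3 tests used across all sequences (Audic-Claverie, chi-squared and Fisher's exact). The family as a sum had 77612 reads in CMS and 55032 in MF, a log2 ratio of 0.81 (0.80 to 0.83). Without miR319a/b the rest of the family had 3583 reads in CMS and 4452 in MF, and their log2 ratio was 0.0028 (-0.061 to 0.067). On this scale the difference of the sum therefore came from 1 sequence.

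Of the 7 sequences, 2 were called higher in CMS, 1 was called lower and 4 were not called. Over all 248 sequences 35 were called (14.1%), 13 of them higher in CMS (5.24%) and 22 lower (8.87%). The log2 ratio of the 86 sequences with reads in both libraries and at least 20 in all had a median of -0.034, and 12 of them exceeded miR319a/b. miR319a/b was hence on the upper side of the sequences but not at their end.

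The other 2 calls were on small counts. ath-MIR319b-p5, with 18 reads in CMS and 0 in MF, was called higher (Fisher's exact test, unadjusted p = 1.907e-06). With 3 reads in place of the 0 (0.409 per 1000000 mappable reads) it was 7.47-fold higher in CMS. This value leaves out the counting error of the 18 reads, so it is not a lower limit. The entry is listed through its CMS reads alone, so neither its call nor this value is independent support for a difference. rco-miR319d_2ss20TC21TA was called lower, with 83 normalized units in CMS and 201 in MF and a log2 ratio of -1.28 (-1.68 to -0.90, Fisher's exact p = 1.844e-12). This call was lost on the scale of mappable reads, where the log2 ratio was -0.40.

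The remaining sequences were not called on the authors' scale. ath-miR319c_L+1R-1 had 3190 normalized units in CMS and 3040 in MF (log2 ratio 0.07, -0.0028 to 0.14). ptc-miR319i_R+1_1ss5GA had 613 units in CMS and 664 in MF (-0.12, -0.28 to 0.04). The log2 ratio of ath-MIR319a-p5 was 0.40 (-0.17 to 0.97) and that of ath-MIR319c-p5 was -0.32 (-1.08 to 0.41). These intervals all include 0.

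The scale decided several of these directions. miR319a/b had 23187 reads per 1000000 mappable reads in CMS and 6899 in MF, a log2 ratio of 1.75, and the median sequence moved to 0.85 on that scale, a shift of 0.88. Scaled by the total of listed miRNA reads, which miR319a/b dominates, the log2 ratio of miR319a/b was 0.34 and the median was -0.56. Leaving miR319a/b out of that total gave 0.93, and the median of ratios gave 0.90. miR319a/b stayed higher in CMS on each of these scales, but ath-miR319c_L+1R-1 and ptc-miR319i_R+1_1ss5GA took both signs, as the plot of scalings shows. By mappable reads both of these were called higher in CMS (0.95 and 0.77), and by total miRNA reads both were called lower (-0.46 and -0.64). ath-MIR319a-p5 was called higher by mappable reads (1.28) and was not called by total miRNA reads (-0.13).

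**Figure D3:**
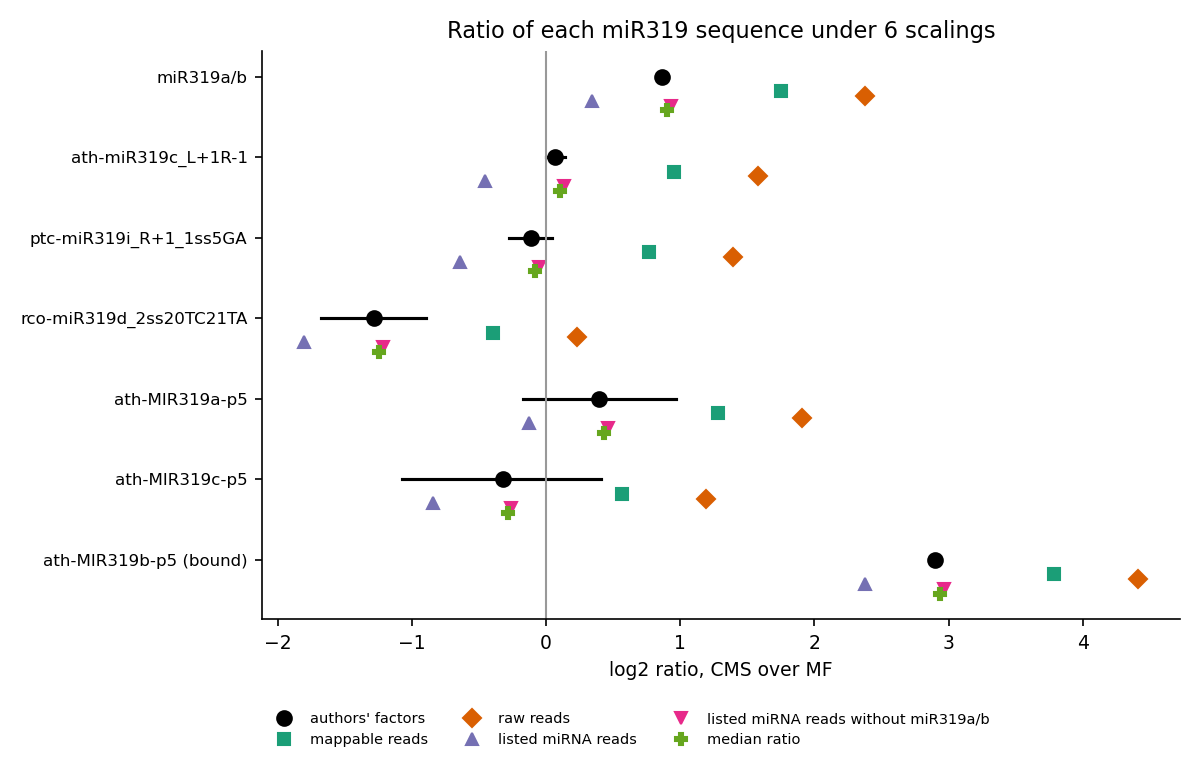
The log2 ratio of CMS over MF on the horizontal axis for each miR319 sequence, with 1 symbol per scaling and, for the authors' factors, the 95% interval of counting error as a line. miR319a/b lies right of 0 under all 6 scalings, as does ath-MIR319b-p5 (marked bound), drawn with 3 reads in place of 0 in MF. rco-miR319d_2ss20TC21TA lies right of 0 only under raw reads (0.23).

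A comparison within each library needs no scale between them. Per 1000 reads of miR319a/b, ath-miR319c_L+1R-1 had 38.6 reads in CMS (37.2 to 40.1) and 67.1 in MF (64.8 to 69.4). ptc-miR319i_R+1_1ss5GA had 7.42 reads in CMS and 14.7 in MF. rco-miR319d_2ss20TC21TA had 0.9996 reads in CMS and 4.43 in MF. All 3 variants were lower relative to miR319a/b in CMS.

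The size of this change differed among them. The log2 ratio of CMS over MF, relative to miR319a/b, was -0.80 (-0.87 to -0.72) for ath-miR319c_L+1R-1, -0.98 (-1.14 to -0.82) for ptc-miR319i_R+1_1ss5GA and -2.15 (-2.55 to -1.76) for rco-miR319d_2ss20TC21TA. Adjusted over all 247 other sequences by the method of Benjamini and Hochberg, Fisher's exact test gave p = 2.906e-98, 2.505e-32 and 2.670e-32 in that order. Among these 247 sequences, 76 were lower relative to miR319a/b (30.8%) and 3 were higher (1.21%), and the 85 with reads in both libraries and at least 20 in all had a median of -0.90. The first 2 variants therefore lay near the median of all miRNAs, with 51 and 38 of the 85 sequences below them, whereas rco-miR319d_2ss20TC21TA had 16 below it.

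The 3 variants were also set against each other. rco-miR319d_2ss20TC21TA was lower in CMS relative to ath-miR319c_L+1R-1, since the log2 ratio of ath-miR319c_L+1R-1 over it was higher by 1.35 in CMS (0.96 to 1.76, Fisher's exact p = 4.182e-13). The same held against ptc-miR319i_R+1_1ss5GA, by 1.17 (0.74 to 1.60, exact p = 8.607e-09), from which it differs only in the last base. ath-miR319c_L+1R-1 over ptc-miR319i_R+1_1ss5GA was higher by 0.19 (0.01 to 0.36, exact p = 0.0368). These were 3 pairs, and the p-values are unadjusted. ptc-miR319i_R+1_1ss5GA and rco-miR319d_2ss20TC21TA differ from miR319a/b only in the last base and matched none of the 3 hairpins. Whether they are miRNAs of their own or reads of miR319a/b with a changed last base was not tested.

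Of the 5′ entries, ath-MIR319c-p5 had 0.365 reads per 1000 miR319a/b reads in CMS (0.240 to 0.531) and 0.830 in MF (0.598 to 1.12), a log2 ratio of -1.19 (-1.94 to -0.46, Fisher's exact test adjusted over all sequences, p = 0.00368). ath-MIR319b-p5, the entry that lies opposite the miRNA, had 0.243 in CMS (0.144 to 0.384) and 0 in MF, for which the upper limit was 0.0729. With 3 reads in place of 0 it was 4.10-fold higher relative to miR319a/b in CMS (adjusted exact p = 6.394e-04). This value again leaves out the counting error of the 18 CMS reads and is not a lower limit. ath-MIR319a-p5 had 0.756 in CMS and 1.05 in MF, a difference within counting error (adjusted exact p = 0.208). Against the 30.8% of all sequences that were lower relative to miR319a/b and their median of -0.90, ath-MIR319c-p5 lay among the other miRNAs, since its interval includes that median. ath-MIR319b-p5 was 1 of the 3 sequences (1.21%) that were higher. Because it is listed through its CMS reads alone, this place is no independent support for a difference.

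**Figure D4:**
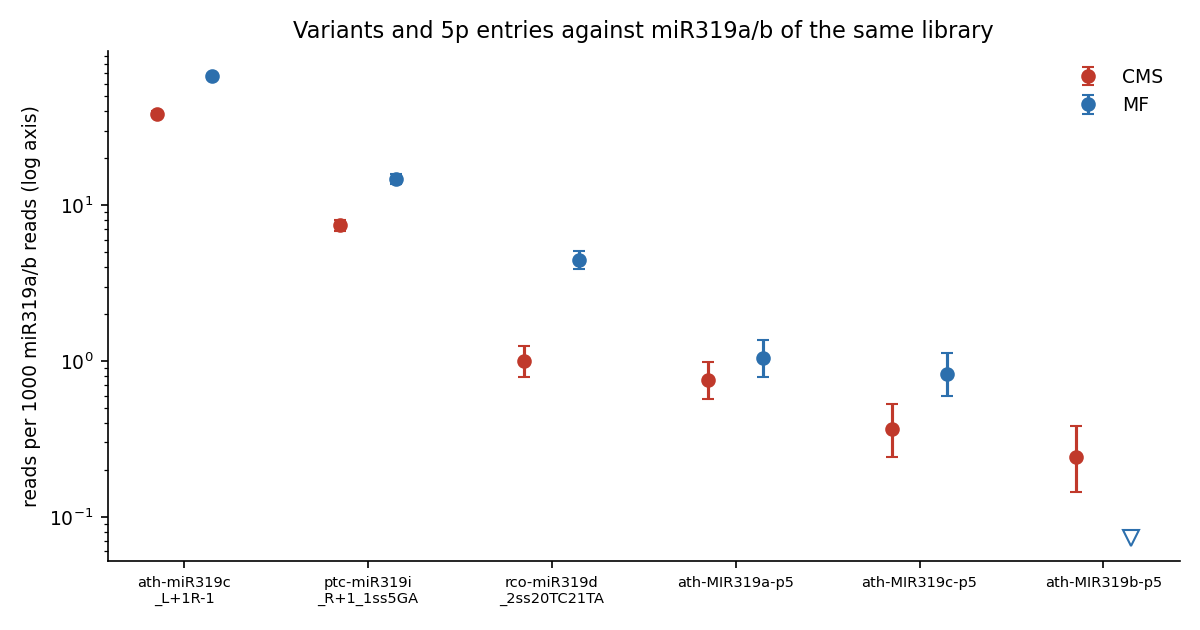
Reads of each variant and 5′ entry per 1000 miR319a/b reads of the same library, on a log axis, with CMS in red on the left and MF in blue on the right and exact 95% intervals of the Poisson count. The 3 variants of the 3′ arm lie lower in CMS than in MF, with 38.6 against 67.1 for ath-miR319c_L+1R-1, and the open triangle marks the upper limit of 0.0729 for the 0 reads of ath-MIR319b-p5 in MF.

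The miR159 family gave a like comparison. miR159a had 5143 reads in CMS and 3766 in MF, a log2 ratio of 0.77 that was called higher. Its other sequences were lower or not called, with ahy-miR159_1ss7TC at 6 reads in CMS and 37 in MF, miR159c_R-2 at 15 in CMS and 86 in MF, and ath-MIR159a-p5 at 11 in CMS and 61 in MF. ath-miR159b_R-1 had 235 reads in CMS and 273 in MF. As with miR319, a main sequence that is higher in CMS places most other sequences lower relative to it, so no ratio within this family is given.

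The degradome libraries show where mRNAs were cut. In this assay the 5′ ends of cut mRNA fragments are sequenced, and the authors listed sites of 1 read or more at which the alignment to a miRNA scored up to 4, lower scores being closer matches. Each site has a category: 0 for more than 1 read and the single highest position of the transcript, 1 for a highest position that is shared, 2 for a position above the median of the transcript, 3 for one at or below it, and 4 for 1 read. Positions are in Arabidopsis transcripts. CleaveLand takes as a site the position opposite base 10 of the miRNA, which therefore holds for all 70 rows with a miR319 query, 43 in CMS and 27 in MF.

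The 5 Arabidopsis TCP genes known to carry a miR319 site were all listed in CMS, and 3 of them were listed in MF. The tables as a whole listed 247 genes in CMS and 335 in MF. The 3 TCP sites listed in both libraries summed to 16 reads in CMS and 3 in MF, and 4 further sites, listed because CMS had reads there, held 7 reads in CMS. None of the 3 related CIN-type genes without such a site, TCP5, TCP13 and TCP17, was listed in either library. Only positions that align to a miRNA are listed, so genes without a miR319 site could not appear with miR319. Their absence is therefore no check of the TCP sites. Listing also follows the depth of a transcript's fragments, and no table of mRNA levels was used here, so cleavage cannot be told apart from the amount of mRNA.

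TCP4 (AT3G15030, chr3:5061681-5064115, forward strand), a central regulator of leaf and petal growth, gave the largest count of these genes. At nt 1487 of its transcript of 2209 nt, 67.3% along its length, 11 reads were found in CMS and 1 in MF. These are 2.21 per 1000000 cDNA-mapped reads in CMS and 0.130 in MF, a ratio of 17.1 with an interval of 2.48 to 736 (log2 ratio 4.10, 1.31 to 9.52). The site was category 0 in CMS and category 4 in MF. miR319a, miR319b, miR319c and ptc-miR319i_R+1_1ss5GA were the queries listed with it, at scores of 3 to 3.5, and the p-values that CleaveLand gave ran from 0.00506 to 0.00947 in CMS and from 0.137 to 0.242 in MF. Here and at the other TCP sites miR319c was a query without small RNA reads of its own. In the small RNA libraries only its variant ath-miR319c_L+1R-1 was listed.

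TCP4 passed the exact binomial test over the 145 sites listed in both libraries (Benjamini-Hochberg adjusted p = 0.00218). Of these 145 sites 23 were called higher in CMS (15.9%) and 3 lower (2.07%), their median log2 ratio was 0.64, and none had a ratio above that of TCP4. The difference rests on a single MF read. Scaled by the reads of the shared sites in place of cDNA-mapped reads, the log2 ratio was 3.25 and the adjusted exact p was 0.0503, which no longer passes. Without any scaling the adjusted exact p was 0.0484, just under the limit.

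The other TCP sites had fewer reads. TCP3 (AT1G53230, chr1:19849788-19851725, reverse strand), a close paralogue of TCP4, had 4 reads at nt 1195 in CMS (category 0) and 1 in MF (category 4), a ratio of 6.21 with an interval of 0.615 to 306 (adjusted exact p = 0.325). TCP2 (AT4G18390, chr4:10162953-10165562, reverse strand) had 1 read at nt 1387 in each library, category 4 in both. Its CleaveLand p-values ran from 0.205 to 0.241 in CMS and from 0.218 to 0.256 in MF. For TCP3 they were 0.0101 to 0.0118 in CMS and 0.256 to 0.292 in MF. Neither gene differed between the libraries beyond counting error.

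TCP10 and TCP24 were listed in CMS alone. TCP10 (AT2G31070, chr2:13220478-13222609, reverse strand) had 3 reads at nt 1391, category 0. TCP24 (AT1G30210, chr1:10627185-10630538, reverse strand) had 2 reads at nt 1142, category 1. These sites entered the list through their CMS reads, and counts this low could not have passed a test against 0, so no difference between the libraries is read from them. Over the transcript forms listed, the TCP sites lay between 64.5% and 75.2% of the transcript's length.

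A second end 1 nt further along was listed in CMS for 2 of these genes, with 1 read at nt 1488 of TCP4 and 1 read at nt 1143 of TCP24. In both the query was ath-miR319c_L+1R-1, the sequence with 1 further 5′ base, and its base 10 faced this later position. CleaveLand gave these 2 ends p-values of 0.534 and 0.205. At nt 1487 of TCP4, listed with the other queries, there were 11 reads. The shift by 1 nt follows from the alignment of the longer 5′ end, and with 1 read each these ends are at the lowest count that the tables hold.

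The 2 MYB genes listed with a miR319 query were shared with miR159. MYB65 (AT3G11440, chr3:3602093-3605104) and MYB33 (AT5G06100, chr5:1837914-1839997) encode GAMYB-like factors that act together in the tapetum of Arabidopsis. Of 8 MYB genes of the miR159 group they were the only ones listed with such a query, through ath-miR319c_L+1R-1 at a score of 4, and each site was listed with 5 miR159 queries as well. The cleavage reads cannot be assigned to a family. MYB120 was listed in MF through a query of another family, and the other genes of the group were not listed.

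MYB65 had 20 reads at nt 1166 in CMS and 5 in MF, category 0 in both, a ratio of 6.21 (2.26 to 21.2, adjusted exact p = 3.748e-04). MYB33 had 10 reads at nt 1172 in CMS (category 1) and 1 in MF (category 4), a ratio of 15.5 (2.21 to 674, adjusted exact p = 0.00458). Both passed the test, although the single MF read of MYB33 had a CleaveLand p-value of 0.559. On the scale of the shared sites neither did, with adjusted exact p = 0.0515 for MYB65 and 0.080 for MYB33. Without any scaling MYB65 passed (adjusted exact p = 0.0328) and MYB33 did not (0.0739).

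The last gene was outside both groups. AT3G57990 (chr3:21470002-21471486, reverse strand) was listed with ath-MIR319b-p5 at a score of 4, with 1 read at nt 1217 in CMS (category 4) and 3 in MF (category 2), a ratio of 0.518 (exact p = 1). The p-values that CleaveLand gave were high, 0.304 in CMS and 0.252 in MF. The 5′ entry itself had 18 small RNA reads in CMS and 0 in MF. This site is the only 1 of the 10 with more reads in MF.

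**Figure D5:**
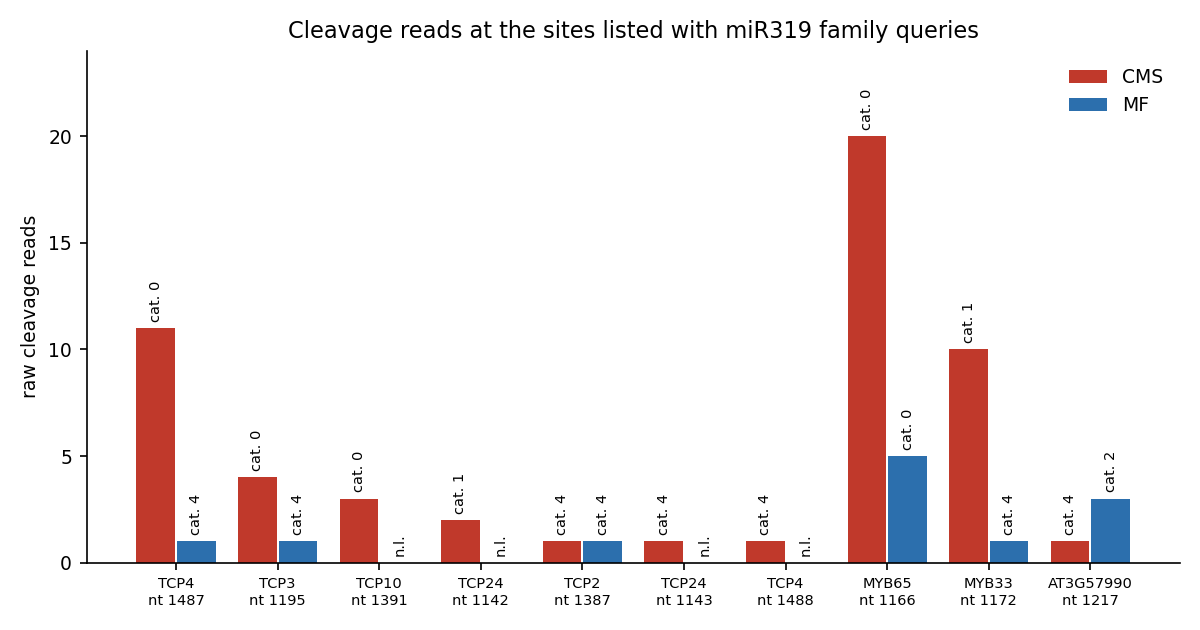
Raw cleavage reads at the 10 sites listed with miR319 family queries, with CMS in red on the left and MF in blue on the right and the position in the Arabidopsis transcript under each gene. Labels give the category of the site, and n.l. marks a site not listed. TCP4 at nt 1487 has 11 reads in CMS and 1 in MF, and MYB65 has 20 in CMS and 5 in MF.

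Over the 6 sites listed in both libraries there were 47 cleavage reads in CMS and 12 in MF, of which 30 in CMS and 6 in MF were at the MYB sites shared with miR159. The ratio of these sums was 6.09 per cDNA-mapped read and 3.38 on the scale of the shared sites. The 4 other sites were all listed in CMS alone, while of all 522 sites 134 were listed in CMS alone and 243 in MF alone. Of all sites in CMS 12.5% were category 0, and 6.19% in MF. Of the TCP sites only TCP4 passed the test, on cDNA-mapped reads and not on the scale of the shared sites, and a relation of these reads to the level of miR319a/b was not tested.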

How the data were processed

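Small RNA and degradome libraries of floral buds from CMS and MF plants were analysed, 1 library per line and assay, grouped by their labels. The members and the gene lists were chosen with earlier results of these data known. For the small RNA, the authors deposited a raw read count for each miRNA beside normalized values in whole units, here treated as a score. The factor of that normalization is not given in the sources used here and was taken from the deposited values of miR319a/b. Degradome reads were aligned by the authors to TAIR 10 cDNA and run through CleaveLand, and they deposited a count of reads per cleavage site, an alignment score, a category and a p-value. A further deposited signal, reads divided by the transcripts they hit, served only as an alternative. The authors' own log2 ratios and lists of changed miRNAs were not used. Coordinates are those deposited for TAIR 10.

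Identical sequences were joined, and sites were joined by gene and position so that reads shared by transcripts or queries counted once. A call needed an Audic-Claverie value below 0.01 over 248, and both a chi-squared and a Fisher's exact p below 0.01, on normalized values with totals of 1000000. Ratios came from raw reads times these factors, and their 95% intervals are exact and conditional on the summed reads. Sites in both libraries were tested by the two-sided exact binomial test, scaled by cDNA-mapped reads, with Benjamini-Hochberg adjustment at 0.05. Fisher's tests within libraries were two-sided. The tools were scipy 1.17.1, numpy 2.4.6 and matplotlib 3.10.9 under Python 3.11.15, and the tests were tested on simulated data. All miR319 entries and all genes listed with them were named, with the TCP genes with and without a miR319 site and the MYB genes of the miR159 group as fixed lists. The depth is given with the results. The alternatives were other scalings, tests and filters, whose effect the closing section gives. Genome sequence was not analysed here, so exons and UTRs at the sites are not given.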

Additional observations from a re-analysis of the deposited data

How the results depend on the processing

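With 1 library per line and assay, no replicate could be left out. For the same reason no paired analysis was possible. The count of called miRNAs was 35 (13 higher and 22 lower in CMS), and 59 (53 and 6) when scaled by raw reads. The split was 38 and 8 by mappable reads, 4 and 36 by total miRNA reads, 17 and 19 by that total without miR319a/b, and 15 and 20 by the median ratio. The count was 45 with the Audic-Claverie limit not divided, 40 by Fisher's exact test with Benjamini-Hochberg adjustment, and 47 with entries not joined. It was 35 with at least 20 reads and 32 with at least 1.5-fold. Against all other reads of the 3′ arm in place of miR319a/b, 3 variants and 2 of the 5′ entries passed. miR319a/b makes up most of those reads, so this was nearly the same comparison and no separate check. The log2 ratio of miR319a/b was 1.75 by mappable reads, 2.38 by raw reads, 0.34 by total miRNA reads, 0.93 by that total without miR319a/b and 0.90 by the median ratio. In the same order the family gave 1.70, 2.32, 0.29, 0.87 and 0.85, and 0.0028 without miR319a/b on the authors' scale. Signs turned for ath-miR319c_L+1R-1 by total miRNA reads (-0.46), for ptc-miR319i_R+1_1ss5GA by mappable reads (0.77) and raw reads (1.39), and for rco-miR319d_2ss20TC21TA by raw reads (0.23). They also turned, with no call on either side, for ath-MIR319a-p5 by total miRNA reads (-0.13) and for ath-MIR319c-p5 by mappable (0.56) and raw reads (1.19). The cause lies in the scale alone, since the reads are the same.

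Cleavage reads at sites listed with miR319 queries, of which the MYB sites shared with miR159 hold 30 of 47 in CMS and 6 of 12 in MF, had a log2 ratio of 2.61 and gave 1.97 without scaling, 1.76 by the reads of shared sites, 2.39 with reads divided by the transcripts hit and 3.04 with transcripts counted apart. Leaving out category 4, or p-values of 0.05 and more, kept MYB65 alone (2.64). Chosen after seeing the data, sites 1 nt apart counted together gave 2.64 and TCP sites alone 3.05. Calls of sites numbered 26 (23 higher and 3 lower), 19 (15 and 4) without scaling and 20 (12 and 8) by the reads of shared sites. They numbered 26 (21 and 5) with sites in 1 library counted as 0, and 25 (22 and 3) with at least 10 reads. Counts under 20 reads in small RNA, and single reads in the degradome, allow only wide intervals.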
